A study of Xenopus tropicalis with 4 samples.

Results

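A set of 211 transcripts that were abundant and held a similar level in all libraries was examined in animal caps of Xenopus tropicalis at stage NF16. Members were chosen from the deposited counts themselves. The reads of each gene on the sense strand were divided by all gene reads of the library and given as counts per 1000000 (CPM). A member had a mean of at least 500 CPM over the 4 libraries and a largest value below 2 times its smallest value. The annotation listed 34177 gene identifiers, 19599 had at least 1 read, and 280 reached the minimum of 500 CPM. Of these 280, 211 met the ratio limit and 69 did not. Because both conditions were set on the sense counts of all 4 libraries, the abundance of the members and their spread between libraries and groups are descriptions of the choice and carry no test.

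Animal caps (ACs) are explants of prospective ectoderm that form an embryonic epidermis in culture. The xRescue caps came from embryos that had received morpholinos against Suv4-20H1 and Suv4-20H2, the methyltransferases KMT5B and KMT5C that add further methyl groups to monomethylated lysine 20 of histone H4, together with Xenopus Phf8 mRNA. The xPhf8 caps had the same mRNA and no morpholino, and their genotype is given as control in the labels. PHF8 is a histone demethylase, and the study describes the injected Xenopus clone as an N-terminal part of the protein. Each group had 2 libraries, each made from RNA of a pool of caps, and both groups carried the Phf8 mRNA, so the comparison is of the morpholinos on that background and holds no library of untreated caps. The labels do not say whether libraries 1 and 2 came from separate spawnings, so the spread between them may be partly technical.

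Transcripts that most cells hold at high and similar levels often encode housekeeping functions: proteins that bind and splice RNA, start and extend translation, fold proteins in the endoplasmic reticulum, and build the cytoskeleton. An epithelium adds the proteins of its cell contacts. The cadherins, which hold neighbouring cells together outside the membrane, are tied to actin filaments inside it by the catenins, while claudins close the space between cells at tight junctions.

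The libraries held 27803072 and 27014575 gene reads in xRescue caps and 26632491 and 43303059 in xPhf8 caps. At this depth the member with the fewest reads in any library still had 9597 (95% Poisson interval 9406 to 9791, which covers counting error only), a counting error of 1.02%. The members together took 28.1% and 30.01% of the gene reads in xRescue caps and 30.4% and 30.4% in xPhf8 caps. The 69 abundant genes outside the ratio limit took 7.99% and 7.92% of the gene reads in xRescue caps and 8.30% and 10.4% in xPhf8 caps. Reads on features without a gene identifier lay outside these totals and were more frequent in xRescue caps, at 9.90% and 7.51% of the reads on features, against 4.18% and 5.98% in xPhf8 caps. When these reads were counted in the library total, a choice made after the data had been seen, 181 genes met the rule, of which 178 were among the 211.

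The mean level of the members ranged between 504 and 24086 CPM with a median of 774 CPM. At least 1000 CPM were reached by 70 members and at least 5000 CPM by 7. These levels are not divided by transcript length, which was not used here, so they order genes by reads and not by molecules. The ratio of the largest to the smallest library had a median of 1.45 over the members. It was below 1.2 for 25 members and below 1.5 for 120, and the coefficient of variation over the 4 libraries had a median of 16.8% with a range of 1.94% to 35.9%.

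**Figure D1:**
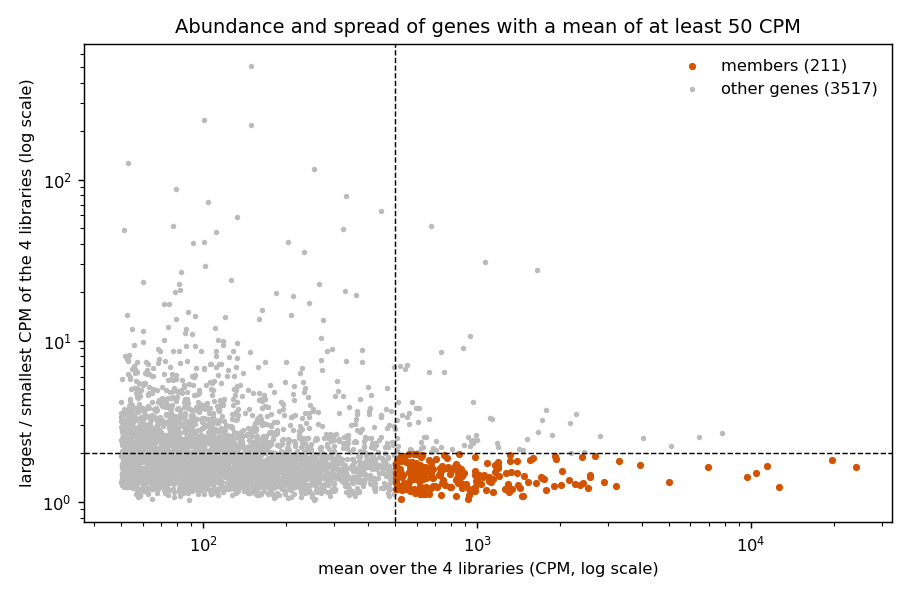
Mean level over the 4 libraries (x axis, CPM, log scale) against the largest divided by the smallest library value (y axis, log scale) for the genes whose mean reached 50 CPM. Each point is a gene, the dashed lines mark 500 CPM and a ratio of 2, and the 211 members fill the lower right corner, with no gap at either line.

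Both limits cut through a continuous cloud of genes. Just inside the abundance minimum were gene2890 with a mean of 505 CPM, sar1a, a small GTPase of vesicle export from the endoplasmic reticulum, with 504 CPM, and gene6979 with 504 CPM. Just below it were gene24204 with 497 CPM, the protocadherin gene pcdh1 with 496 CPM and gene3434 with 496 CPM. At the ratio limit, tagln2 (1.987), which encodes an actin-binding protein, chd7 (1.995), which encodes a chromatin remodeler, and dnaja2 (1.997), which encodes a co-chaperone of HSP70, were the last to be included. The next genes, phf8 (2.002), arvcf (2.012), a catenin gene, and gene4701 (2.028), were left out. Transcripts of phf8, which include those injected, therefore narrowly missed the set with 2532 and 1405 CPM in xRescue caps, against 2813 and 2028 CPM in xPhf8 caps. The targets of the morpholinos were far below it, suv420h1 (KMT5B) with 101 and 125 CPM with the morpholinos, against 117 and 121 CPM without them and kmt5c with 97.4 and 64.7 CPM in xRescue caps, against 45.5 and 57.5 CPM in xPhf8 caps, and a morpholino that blocks translation need not change the RNA of its target.

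The share of genes within the ratio limit grew with abundance. Among genes with a mean of 1 to 10 CPM, 589 of 5204 (11.3%) had a ratio below 2, compared with 1854 of 4770 (38.9%) between 10 and 50 CPM and 895 of 1682 (53.2%) between 50 and 100 CPM. The share was 66.99% (899 of 1342) between 100 and 250 CPM and 72.8% (311 of 427) between 250 and 500 CPM. In the class of the members it was 75.4% (211 of 280). A ratio below 2 was thus the rule rather than the exception among genes with many reads.

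**Figure D2:**
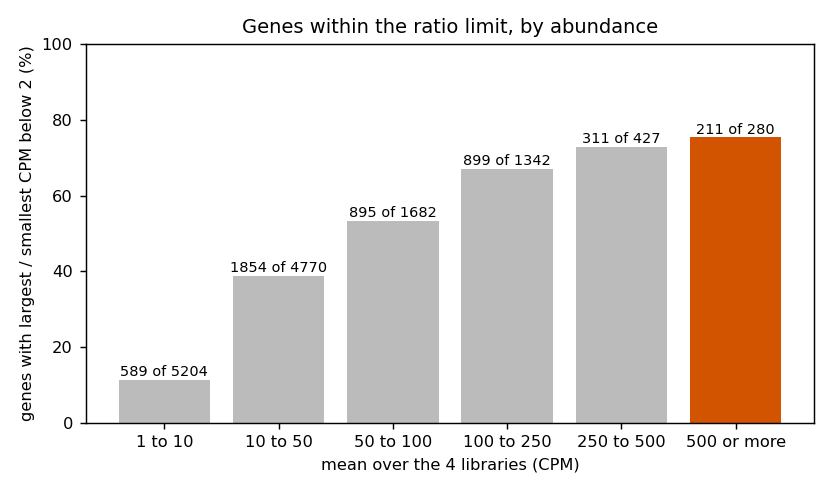
Percent of genes whose largest library value was below 2 times the smallest (y axis), for genes grouped by their mean level over the 4 libraries in CPM (x axis). Numbers above the bars are the genes within the limit of all genes in the class; the bar at 500 CPM or more, with 211 of 280 genes, is the set described here.

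The members that were most constant in CPM differed between libraries by a few percent of their level. The smallest ratio, 1.04, belonged to gene3477, an identifier without a symbol, with 933 and 897 CPM in xRescue caps, against 937 and 924 CPM in xPhf8 caps. It was followed by rac1, which encodes a small GTPase that directs actin assembly at the cell edge, with 513 and 516 CPM in xRescue caps, against 536 and 537 CPM in xPhf8 caps and a ratio of 1.05. Even here both xRescue libraries were below both xPhf8 libraries. The members gene1293, gene18366 and gene5989 came next with ratios of 1.09, 1.09 and 1.09. This ranking holds for CPM, and TMM factors of 0.918 to 1.08 would shift such small ratios. With TMM or DESeq2 size factors, gene3477, gene18366 and gene5989 were lower in both xRescue libraries than in either xPhf8 library. The largest ratio was that of dnaja2.

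Symbols were known for 78 members and missing for 133. They came from the pairs of identifier and name in the study's supplementary tables, which were held only in part and were ordered by the study's tests. These tests included the study's own comparison of the rescue with the Xenopus Phf8 clone alone. Having a symbol may thus depend on the difference between the groups described here. An entry was found for 39.3% of the members but 87.0% of the abundant genes outside the ratio limit. A count of functions over the 78 named members is therefore not a census of the 211. The gene lists below hold only named genes. Their medians and calls, set beside all genes tested, may thus be drawn toward genes that differ between the groups. Members without a symbol had means of 504 to 24086 CPM (median 747), and those with one had means of 504 to 9651 CPM (median 846). The 5 members with the most reads were all without a symbol and took 7.17% and 9.15% of the gene reads in xRescue caps and 7.35% and 7.65% in xPhf8 caps. Of these, gene8482 had 18480.4 and 30289 CPM in xRescue libraries 1 and 2 and 20882 and 26690.3 CPM in xPhf8 libraries 1 and 2, so that library 2 was above library 1 in both groups. The level of gene23575 was 23507 and 24959 CPM in xRescue caps, against 16766 and 13673 CPM in xPhf8 caps, with both xRescue libraries above both xPhf8 libraries. The reads of gene17253 were more even, with 11003 and 13084 CPM with the morpholinos, against 12727 and 13640.1 CPM without them. Among members with an entry, chromosome 3 held 13 of 83 (15.7%, against 10.1% of all 6622 entries) and the unplaced scaffolds held 6 (7.23%, against 14.07%).

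Among the lists, that of proteins that bind RNA gave the most named members and also held the most genes with an identifier. By share it was not the largest, beside cell contact genes (7 of 22), protein folding (5 of 17) and translation factors (3 of 12). Of 33 RNA-binding and splicing genes with an identifier, 8 were members, 3 were abundant but outside the ratio limit and 22 were below 500 CPM. The member with the most reads was cirbp, which encodes a cold-inducible RNA-binding protein, with 5277 and 5529 CPM in xRescue caps, against 8676 and 8310.0 CPM in xPhf8 caps. The groups did not overlap, and the log2 difference (xRescue over xPhf8, scaled with TMM) was -0.80. For hnrnpab, an hnRNP gene, 2288 and 2099 CPM with the morpholinos, against 2762 and 2557 CPM without them were counted, again lower in both xRescue libraries (log2 difference -0.43). The DEAD-box helicase gene ddx5 had 1482 and 1433 CPM in xRescue caps, against 2009 and 1958 CPM in xPhf8 caps, and the pairs of libraries were close within each group and apart between the groups (-0.59). For hnrpk, the gene of hnRNP K, levels of 2031 and 1944 CPM with the morpholinos, against 2677 and 1999 CPM without them overlapped, because only library 1 of the xPhf8 group was high. The gene of the signal-responsive splicing regulator Sam68, khdrbs1, had 1029.9 and 938 CPM in xRescue caps, against 1439.8 and 1252 CPM in xPhf8 caps and was lower in both xRescue libraries. The other 3 members, prpf8, sfpq and sf3b1, which encode splicing factors, had ratios between 1.40 and 1.87. In all, 5 of the 8 members were lower in both xRescue libraries than in either xPhf8 library in CPM, beside 17% of all genes tested. After TMM scaling 7 were lower, beside 22.4%, with none higher under either scaling. Of all 211 members, 28.0% were lower in CPM and 47.4% with TMM. The rule used these same counts, so nothing is read from them about the list. Over all 33 genes of the list the median log2 difference was -0.23, beside -0.06 for all genes tested, and other genes of the list had positive values, such as hnrnpa2b1 (2.35) and son (1.35), which were below 500 CPM and are named after their values were seen.

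The splicing factor gene srsf5 stood outside the set, with 3868 and 2927 CPM in xRescue caps, against 1288 and 1099.9 CPM in xPhf8 caps and a ratio of 3.52. Together with hnrnph3 (ratio 2.18) and hnrnpa1 (ratio 2.09) it made up the 3 abundant genes of the list that exceeded the limit.

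Translation factors gave 3 members, and over the whole list the median log2 difference was 0.11, beside -0.06 for all genes tested. Of 12 genes with an identifier, 3 were members, eif1 was abundant but outside the ratio limit (ratio 2.42), and 8 were below 500 CPM. The level of eif4g2, which encodes a relative of the scaffold protein eIF4G, was 3107 and 2801 CPM in xRescue caps, against 2218 and 2166 CPM in xPhf8 caps (log2 difference 0.28). For eif5, whose product helps select the start codon, 1401 and 1269.7 CPM with the morpholinos, against 875 and 799 CPM without them were found, with a log2 difference of 0.53. Both were higher in each xRescue library under all 3 scalings tried, and neither passed the edgeR test. Of all genes tested, 25.7% were higher in both xRescue libraries in CPM, 21% with TMM and 21.4% with DESeq2 size factors. The gene eef1a1, which encodes the factor that brings tRNAs to the ribosome, had 1433 and 1580.2 CPM in xRescue caps, against 1288 and 1412 CPM in xPhf8 caps, and its groups were separate in CPM but overlapped after TMM scaling, with a log2 difference of 0.01. No ribosomal protein gene was a member. All 13 with an identifier were below 500 CPM, with means of 0.929 to 296 CPM, and most of the list's 83 symbols had no identifier in the name pairs, so the members without a symbol may or may not hold some of them.

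Cell contact genes gave 7 members among 22 genes with an identifier. In CPM and with TMM, 2 of the 7 were higher and 2 lower in both xRescue libraries than in either xPhf8 library. Of all genes tested, 25.7% were higher and 17% lower in CPM, and 21% and 22.4% with TMM. The rule used these same counts, so nothing is read from them about the list. No gene of the list passed the edgeR test or DESeq2. In the edgeR test 3 of 21 had an unadjusted p under 0.05, beside 9.78% of all genes tested. The median log2 difference of the list was -0.07, beside -0.06 for all genes tested. The gene of β-catenin, ctnnb1, which links cadherins to actin and also carries Wnt signals, had 2899 and 2537 CPM in xRescue caps, against 4539 and 3248 CPM in xPhf8 caps (log2 difference -0.66). Its partner α-catenin, ctnna1, had 943 and 1049 CPM with the morpholinos, against 1226 and 1541 CPM without them (log2 difference -0.63). Both catenins were lower in each xRescue library than in either xPhf8 library. The claudin gene cldn4 went the other way, with 2595 and 2272 CPM in xRescue caps, against 1479 and 1350.0 CPM in xPhf8 caps (log2 difference 0.63), the largest positive difference among the members. The gene of the epithelial adhesion molecule epcam was also higher, with 1768 and 1407 CPM with the morpholinos, against 1226 and 1175 CPM without them (0.25), and both pairs of groups stayed apart under all 3 scalings. P-cadherin, cdh3, an adhesion gene that is also on the list of basal epidermis markers, had 1554 and 1109 CPM in xRescue caps, against 1169 and 931 CPM in xPhf8 caps, where library 1 exceeded library 2 in either group and the groups overlapped. The other 2 members were cdh1, the gene of E-cadherin, with a ratio of 1.16, and dsc3, the gene of a desmosomal cadherin, with a ratio of 1.86.

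The actin cytoskeleton was represented by 3 members of 29 genes with an identifier, while its most abundant genes were outside the ratio limit. Beside rac1, these were myh9, which encodes the heavy chain of non-muscle myosin II, and myl12b, which encodes a regulatory light chain of that myosin. The level of myh9 was 1492 and 1977 CPM in xRescue caps, against 1531 and 2737 CPM in xPhf8 caps, and that of myl12b was 402 and 511 CPM with the morpholinos, against 485 and 643 CPM without them. In both genes library 2 exceeded library 1 in either group, and the groups overlapped. The cytoplasmic actin gene actg1 had 4960.1 and 7830.0 CPM in xRescue caps, against 5151 and 13238 CPM in xPhf8 caps (ratio 2.67) and actb had 1739 and 2661 CPM with the morpholinos, against 2293 and 4489.9 CPM without them (ratio 2.58), with the same order of the libraries. The filamin gene flna and the actinin gene actn1 were the other 2 abundant genes outside the limit. Near-identical actin copies share reads, and reads that matched several places were not counted, so the levels of single actin genes are uncertain. None of the 11 tubulin and microtubule genes with an identifier was a member. That list had 24 symbols, so the members without a symbol may or may not hold some of its genes.

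Protein folding gave 5 members among 17 genes with an identifier, mostly of the endoplasmic reticulum. The lectin chaperones canx and calr, which hold new glycoproteins until they fold, had 2081 and 2605 CPM in xRescue caps, against 2007 and 2382 CPM in xPhf8 caps for canx and 1434 and 1769 CPM with the morpholinos, against 1579 and 2057 CPM without them for calr. In both, library 2 was above library 1 in each group, and the groups overlapped. The disulfide isomerase gene p4hb, with 1077 and 1317 CPM in xRescue caps, against 1120.1 and 987 CPM in xPhf8 caps, also overlapped. The 2 cytosolic members were lower in each xRescue library, as were 17% of all genes tested in CPM and 22.4% with TMM. Of these, dnaja2 had 408 and 408 CPM with the morpholinos, against 814 and 723 CPM without them (log2 difference -1.06). The gene of cyclophilin A, ppia, had 459 and 519.6 CPM in xRescue caps, against 751 and 552 CPM in xPhf8 caps (-0.55). Over the whole list the median log2 difference was -0.33, beside -0.06 for all genes tested. Genes of the list below 500 CPM went both ways, such as dnajb1 (1.33) and st13 (-1.02), which are named after their values were seen. The HSP70 of the endoplasmic reticulum, hspa5, fell below the abundance minimum with 837 and 482 CPM in xRescue caps and 388 and 165 CPM in xPhf8 caps.

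Of 25 histone and chromatin genes with an identifier, 3 were members. The nucleosome-binding protein gene hmgn1 had 2985 and 2921 CPM in xRescue caps, against 4839.8 and 4974 CPM in xPhf8 caps, a log2 difference of -0.88 with closely spaced libraries inside each group. For set, which encodes a histone chaperone, 1087 and 1094 CPM with the morpholinos, against 1437 and 1677 CPM without them were found (log2 difference -0.67). The histone H3.3 gene h3f3b had 834 and 546 CPM in xRescue caps, against 590.3 and 506 CPM in xPhf8 caps and overlapping groups, and its reads overlap those of a gene on the other strand, as given with the antisense reads. The high mobility group genes hmgb2 and hmgb3 and the histone variant gene h2afz were abundant with ratios of 2.48, 2.61 and 2.14 and so did not belong to the set.

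The named member with the most reads was gfpt1, which encodes the first and rate-limiting enzyme of hexosamine synthesis, the route to the sugar donor for glycoproteins. Its level was 7951 and 8068 CPM in xRescue caps, against 11312 and 11274 CPM in xPhf8 caps, so the libraries of a group differed by under 2% while the groups were separate (log2 difference -0.64). The polyubiquitin gene ubc, the single member among 11 genes of the ubiquitin and proteasome list, had 1277 and 1230.1 CPM with the morpholinos, against 2293 and 1584 CPM without them (log2 difference -0.77), lower in each xRescue library. The gene slbp, whose product binds the stem-loop at the end of histone mRNAs, was higher in each xRescue library with 1950.0 and 1327 CPM in xRescue caps, against 1221 and 1081 CPM in xPhf8 caps (0.36). The smooth muscle-type calponin gene cnn1 had 1126 and 881 CPM with the morpholinos, against 1232 and 1455 CPM without them (-0.58) and was lower in each xRescue library. Groups overlapped in CPM for ywhaq, a 14-3-3 gene with a ratio of 1.18, for arf1, a GTPase gene of Golgi vesicle traffic (1.40), for the tripartite motif gene trim29 (1.33) and for atp12a-like.1 (1.80). In the last of these, xRescue library 2 alone was low, with 1555 and 864 CPM in xRescue libraries 1 and 2 and 1433 and 1397 CPM in xPhf8 libraries 1 and 2.

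No member came from the lists of glycolysis (0 of 6 genes with an identifier) or mitochondrial respiration and transport (0 of 8). These lists had 17 and 62 symbols, so the members without a symbol may or may not hold some of their genes. The single member on the immediate-early list was btg1, an antiproliferation gene, with 1114 and 740.0 CPM in xRescue caps, against 779 and 765 CPM in xPhf8 caps, where xRescue library 1 alone was high. Of the 24 immediate-early genes with an identifier, 4 passed the edgeR quasi-likelihood test over all genes, beside 5 of all 14716 genes tested (0.034%), and these rose in xRescue caps. DESeq2 called 16 of the 24, and btg1 passed neither test. Genes had an identifier only through the name pairs, which were ordered partly by the study's test of this same comparison. The lists were also chosen with earlier results of these data known. The share of immediate-early genes called is therefore not comparable with that of all genes, and nothing is read from it. In the other 20 lists no gene passed the edgeR test. Between 0 and 13 genes per list had an unadjusted p under 0.05 there, and DESeq2 called between 0 and 5.

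**Figure D3:**
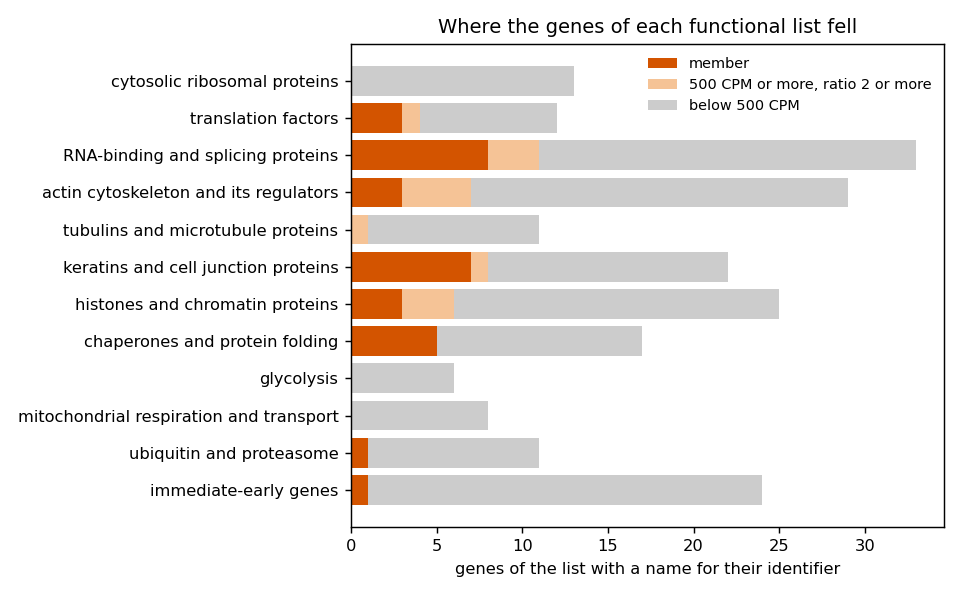
Number of genes (x axis) of each functional list (y axis) that were members, that reached 500 CPM but had a ratio of 2 or more, or that had a mean below 500 CPM. Genes whose identifier had no name are not shown; the list of RNA-binding and splicing proteins held the most members, 8 of 33, and the ribosomal, tubulin, glycolysis and mitochondrial lists held none.

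The members were set beside markers of the cell types that a cap can form. The basal epidermis list gave 1 member of 6 genes with an identifier, cdh3 (log2 difference 0.19). The median of that list was -0.20. Its other genes were below 500 CPM, with log2 differences of -1.63 (tp63) to 0.11 (dlx5). The small secretory cell list gave 1 member of 2, the mucin gene muc4 (0.09). It had 657 and 809 CPM in xRescue caps, against 462 and 777 CPM in xPhf8 caps. The other gene of that list, foxa1, had a mean of 27.3 CPM and a log2 difference of -1.22. The goblet cell genes otog and agr2 were abundant but outside the ratio limit (2.04 and 2.53). Multiciliated cell markers gave no member of 16, and their summed level was 1272 and 1671 CPM in xRescue caps, against 3009.6 and 2025 CPM in xPhf8 caps. Of this sum tubb4b, which is also on the tubulin list, gave 596 and 862 CPM, against 1335 and 955 CPM. The median log2 difference of the 16 genes was -1.19, beside -0.06 for all genes tested. Of the 16, edgeR called 0 and DESeq2 called 3, beside 0.034% and 3.67% of all genes tested. Only 16 of 23 symbols of this list had an identifier. The name pairs were ordered by the study's tests, so this median may be drawn toward genes that differ. None of 13 ionocyte markers was a member either. The median log2 difference of these 13 genes was lower still, at -1.28, under the same limit of the name pairs, and edgeR and DESeq2 called 0 of them. Their sum was 152 and 1079 CPM in xRescue caps and 915 and 1354 CPM in xPhf8 caps, and ca2 had no read in xRescue library 1. That library also had the fewest genes with a read, 14412, against 16076 in xRescue library 2 and 16494 and 16652 in the xPhf8 libraries. Markers of other tissues were also read. Neural markers (4 genes) summed to 64.7 and 28.8 CPM in xRescue caps and 42.4 and 53.7 CPM in xPhf8 caps, mesoderm markers (2 genes) to 39.1 and 38.7 CPM against 12.5 and 2.101 CPM, and endoderm markers (4 genes) to 252 and 139 CPM against 48.4 and 21.98 CPM. Only 4 of 13 neural, 2 of 13 mesoderm and 4 of 10 endoderm symbols had an identifier, so no level of a whole tissue is read from these sums. The mesoderm sum was almost all chrd, since acta2 had no read in either xRescue library. In both xRescue libraries most of the endoderm sum came from vegt. The genes vegt, sox17a and darmin were each higher in both xRescue libraries, while the groups overlapped for sox17b.2. The endoderm sum was higher in both xRescue libraries, and in xRescue library 1 it exceeded that of the ionocyte markers. The median log2 difference of the 4 endoderm genes was 1.89, under the same limit of the name pairs. The part of these cell types in the level of any member was not tested, and in bulk RNA fewer cells of a type and less RNA per cell cannot be told apart. Leaving out xRescue library 1 gave 233 genes that met the rule, 202 of them among the 211. Leaving out any library can only lower the ratio of a gene, so the rise is not read as a trait of this library.

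**Figure D4:**
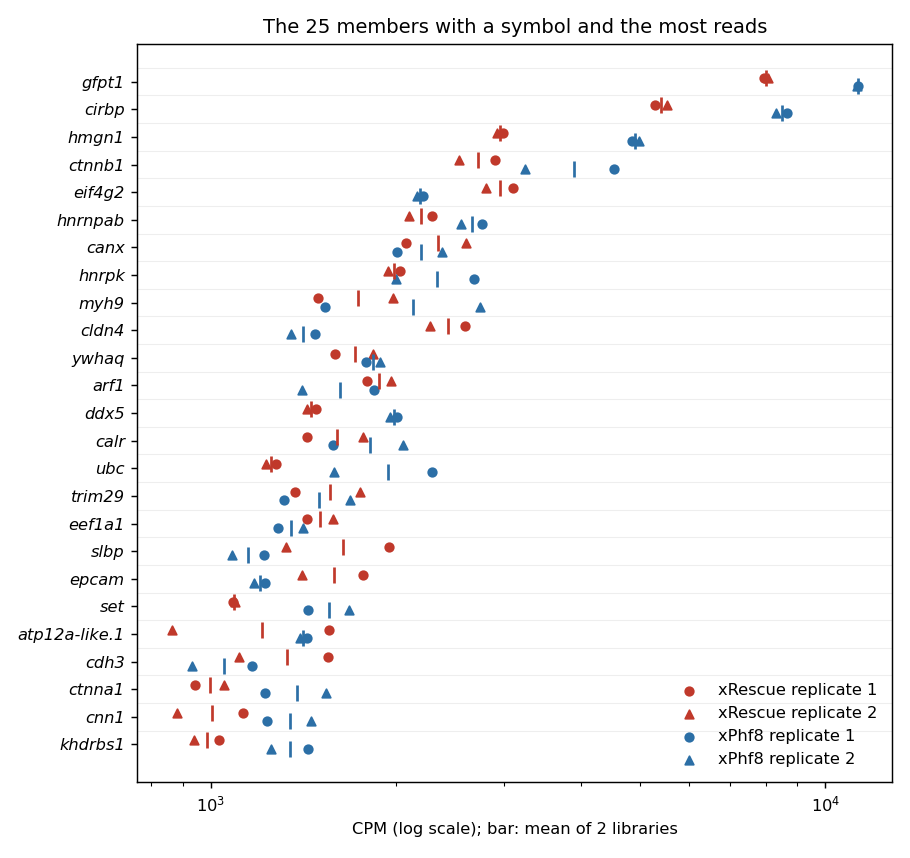
Level (x axis, CPM, log scale) of the 25 members with a symbol and the most reads. Circles are libraries 1 and triangles libraries 2 of the xRescue (red) and xPhf8 (blue) groups, and the short vertical lines are the means of 2 libraries; gfpt1, cirbp and hmgn1 show tight pairs that are lower in xRescue caps, and cldn4 and eif4g2 show pairs that are higher.

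The order of the groups was counted for each member as a description. In CPM, 59 of the 211 members (28.0%) were lower in both xRescue libraries than in either xPhf8 library, and 32 (15.2%) were higher. Over all 14716 genes tested the shares were 17% and 25.7%. The choice of scaling moved this split. TMM factors (1.08 and 1.03 for xRescue caps, 0.982 and 0.918 for xPhf8 caps) shifted the median log2 difference of all genes by -0.15 relative to CPM, and with them 100 members (47.4%) were lower and 17 (8.06%) were higher, beside 22.4% and 21% of all genes. With DESeq2 size factors the counts were 97 and 17, beside 22% and 21.4%. Since the rule used these same counts, nothing is read from these shares about the members. All 59 members that were lower in CPM, and 17 of the 32 that were higher, kept their groups apart in the same direction under the 3 scalings.

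The median log2 difference of the members lay below that of all genes by 0.22 under each scaling, at -0.13 beside 0.09 in CPM, -0.28 beside -0.06 with TMM and -0.27 beside -0.05 with DESeq2 size factors. All genes tested were mostly far less abundant than the members. Of the 69 equally abundant genes outside the ratio limit, most were also lower in xRescue caps with TMM. The lower median is therefore not shown to be particular to the members. The lower and upper quartiles of the members were -0.43 and -0.05 in the edgeR fit, and those of all genes -0.59 and 0.52. Fitted values ranged between -1.06 and 0.63 over the members. By construction the limit on the ratio keeps them within a narrow band.

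The edgeR quasi-likelihood test was run over all 14716 genes with Benjamini-Hochberg adjustment. All 211 members passed the filter of at least 1 read in 3 of 4 libraries. The test called 5 genes (0.034%), all higher in xRescue caps, and 0 members, while 23 members (10.9%) had an unadjusted p under 0.05, as did 1439 of all genes tested (9.78%). DESeq2 called 540 genes (3.67%), of which 339 (2.3%) were higher and 201 (1.37%) lower in xRescue caps, and 3 of those lower were members: hmgn1, dnaja2 and bsg. The gene bsg, which encodes the membrane glycoprotein basigin, is named here because of this call. Its level was 529 and 522 CPM in xRescue caps, against 963 and 1014 CPM in xPhf8 caps (log2 difference -1.06), and the libraries of each group were close together. Since the counts of the members also set the rule, these calls describe the members and support nothing further.

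**Figure D5:**
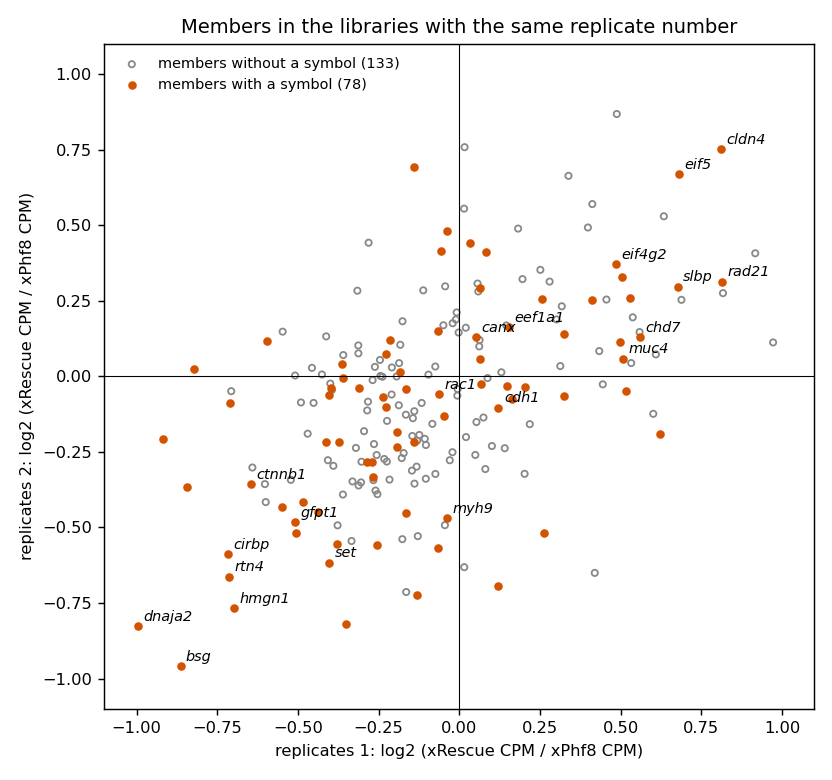
Log2 of the xRescue level over the xPhf8 level (CPM) of each member in the libraries numbered 1 (x axis) and 2 (y axis). Filled points have a symbol and open points do not; 101 members lie in the lower left, 50 in the upper right, and dnaja2 and bsg at the lower left end.

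The libraries of the same number gave the same sign for most members. In both pairs 101 members were lower in xRescue caps and 50 were higher, which makes 151 (71.6%) with 1 sign, beside 63.8% of all genes tested. The spread between libraries was capped by the rule, which keeps every ratio of a member below 2, and is given as a description. Its standard deviation over the members, as log2 of 1 library over the other, was 0.31 between the xRescue libraries and 0.37 between the xPhf8 libraries, and 0.33 to 0.45 for the 4 pairs that cross the groups. The highest of the 4 values of a member fell in xRescue library 1 for 43 members and in xRescue library 2 for 31, against 72 in xPhf8 library 1 and 65 in xPhf8 library 2. The lowest value was in the xRescue libraries for 69 and 62 members, and in the xPhf8 libraries for 34 and 46.

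The order of the libraries by number is given likewise as a description. Library 2 was above library 1 in both groups for 68 members (32.2%) in CPM, beside 27.7% of all genes tested, and below it in both groups for 79 (37.4%), beside 33.3%. With TMM scaling the counts were 96 (45.5%) and 52 (24.6%), beside 31.8% and 28.9%, so the direction that held more members turned with the scaling. The shares in CPM lay near those of all genes, while the share with library 2 above was further from it with TMM. The rule used these same counts, so nothing is read from either about the members. The genes myh9, myl12b, canx and calr were examples of the first order in CPM, and slbp, epcam and cdh3 of the second.

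Reads on the strand opposite to a gene were not counted by the rule. Their share of the reads at a locus does depend on it, since most reads at the locus are the sense reads that chose the members, so the shares are given as a description. Over the loci of the members together, antisense reads made up 0.117% and 0.102% of the reads in xRescue caps and 0.0552% and 0.0669% in xPhf8 caps. Over all other genes the shares were 3.27% and 3.74% in xRescue caps and 2.57% and 3.03% in xPhf8 caps. The median share per locus was 0.0583% for the 211 members, 0.0652% for the 69 equally abundant genes outside the ratio limit and 0.105% for all other genes tested. A low share was thus common to abundant genes and not particular to the members. It exceeded 1% at 4 members (1.90%), at 0 of the 69 abundant genes outside the ratio limit (highest value 0.427%) and at 32.1% of the other genes tested, and exceeded 50% at no member and at 304 other genes. No antisense read was found at 7 members.

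Antisense counts were tested with edgeR at the 3644 genes that had at least 1 antisense read in 3 libraries, 129 of them members. None was called (0% of the genes tested), with 155 genes and 3 members at an unadjusted p under 0.05. DESeq2 called 36 genes (0.988%), of which 31 (0.851%) were higher and 5 (0.137%) lower in xRescue caps, and 2 of those higher were members, gene5990 and gene31062, which are singled out for this reason and have no symbol. At gene5990, 1560 and 939 antisense reads were counted in xRescue caps, against 72 and 90 in xPhf8 caps, which was 6.404% and 3.131% of the reads at the locus, against 0.225% and 0.214%. At gene31062 there were 327 and 627 antisense reads in xRescue caps, against 9 and 55 in xPhf8 caps, or 2.18% and 4.59% against 0.0856% and 0.168%. The groups did not overlap at either locus. The edgeR log2 difference was 3.52 for gene5990 (adjusted p = 0.202) and 3.86 for gene31062 (adjusted p = 0.464). Sense reads at these loci were 22798 and 29050 in xRescue caps and 31920 and 42025 in xPhf8 caps for gene5990. Those of gene31062 were 14672 and 13024 in xRescue caps and 10509 and 32766 in xPhf8 caps.

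When strand was ignored, 6 members (2.84%, beside 3.47% of the other genes tested) kept fewer than 90% of their sense reads. Unstranded counting leaves out reads that lie on genes of both strands. Among them were h3f3b, which kept 0.419 of its reads, and ccdc47, whose product takes part in membrane protein insertion, with 0.624. The most affected was gene2362 with 0.0988. The levels of these members depended on counting by strand, and 205 of the 211 met the rule on unstranded counts, with no other gene added.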

How the data were processed

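RNA was measured in 4 libraries, 2 of xRescue and 2 of xPhf8 animal caps, grouped by the labels. The authors depleted ribosomal RNA, prepared directional libraries, aligned paired-end reads with STAR 2.7.1a to the Xenbase genome with gene models converted by Cufflinks, and deposited whole-number read counts per gene, not normalised and not pooled. STAR counts uniquely mapped reads, so near-identical genes lose shared reads. No molecular identifiers are described. The total of all reads per library was 56784649 and 53261440 for xRescue and 46463910 and 78130324 for xPhf8. Reads that STAR placed on features lacking an identifier (5.38% and 4.12% of all reads for xRescue, 2.50% and 3.53% for xPhf8) were left out.

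Counts on the reverse strand were used as sense counts and the opposite ones as antisense counts. The study states a test with DESeq2. Here edgeR 4.0.16 (quasi-likelihood test, TMM) in R 4.3.3 was the main test and DESeq2 1.42.0 an alternative, both on genes detected by 1 read or more in 75% of libraries, with a threshold of 0.05 on the Benjamini-Hochberg adjusted p. The p-values weigh the group difference only against the spread between these libraries, estimated with the help of other genes. Group differences are ratios of group means. Other abundance and ratio limits, scalings, filters, unstranded counts, left-out libraries and a replicate block were tried. The script was tested on simulated data.

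Names came from the study's supplementary pairs of identifier and name (6622 identifiers), with 75 member symbols matched to RefSeq symbols and 2 to synonyms. Named were the 25 members with a symbol and the most reads, list members (all of a list of at most 5, otherwise the 4 with the most reads), and the genes next to each limit or with extreme ratios. Other names were chosen after their values were seen. The members and the 21 gene lists were chosen with earlier results of these data known. No sequences were at hand, so none is shown.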

Additional observations from a re-analysis of the deposited data

Results flagged for a closer look

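Reads on features without a gene identifier lay outside the gene counts from which the members were chosen. They made up 5.38% and 4.12% of all reads in xRescue caps (mean 4.75%), against 2.50% and 3.53% in xPhf8 caps, and the groups did not overlap. They are given because they were higher with the morpholinos in data that no comparison used. Which features carried them was not analysed here.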

How the results depend on the processing

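The number of members was 522 at a minimum of 250 CPM, 70 at 1000 CPM and 120 with a ratio below 1.5. Their share of the gene reads, 29.7% as reported, was 40.3%, 20.2% and 14.5% under these choices, 35.7% with a ratio below 3, 26.2% with features without an identifier in the total (a choice added after the data had been seen), and 31.3% to 33.1% when any library was left out, which gave 219 to 233 members. TMM scaling gave 204 members (196 shared with the 211) and DESeq2 size factors 199 (192 shared). The number of genes called, 5 as reported, was 540 with DESeq2, 726 without the filter, 0 with filterByExpr (1662 at an unadjusted p under 0.05), and 15 to 337 with a library left out. It was 23 and 26 without xPhf8 libraries 1 and 2, 15 without xRescue library 1 and 337 without xRescue library 2, where the lone library is assumed to vary like the other group. Members called, 0 as reported, were 3 with DESeq2 and 2 without the filter. Antisense calls, 0 as reported, were 36 with DESeq2 and 48 without the filter. The cause of these differences was not tested. The median log2 difference of the members stayed negative, between -0.33 and -0.17, with any library left out.

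With the replicate number as a block, 700 genes (4.76%; 333 higher and 367 lower in xRescue caps) and 13 members (6.16%; 2 higher and 11 lower) were called, and 33 genes on antisense counts. Across genes, a library's deviation from its group mean had a correlation of r = 0.22 with that of the library of the same number; genes are not independent replicates. With 2 pairs and no label that says what a number stands for, the libraries share only a number.

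Over 780 values of the 78 named members under other fits, 727 stayed within the replicate spread and 42 had another sign than reported. With 2 libraries a group, an exact permutation test of a single value could not go below p = 0.333.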

Other observations

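Members of the secretory route and of 2 gene families are described here, in groups assembled after their values were seen and with no test. The translocon gene sec61a1, whose product forms the channel into the endoplasmic reticulum, had 1150.1 and 1342 CPM in xRescue caps, against 964 and 1125 CPM in xPhf8 caps, and its groups were separate in CPM and overlapped after TMM scaling. For srp72, a protein of the signal recognition particle, 544 and 457 CPM with the morpholinos, against 675 and 469.6 CPM without them were counted, with only xPhf8 library 1 high in CPM. With TMM or DESeq2 size factors, both xRescue libraries of srp72 were below both xPhf8 libraries (log2 difference -0.34). The gene serp1, which encodes a small protein that associates with the translocon, had 529 and 563 CPM in xRescue caps, against 583 and 348 CPM in xPhf8 caps, with only xPhf8 library 2 low. The reticulon gene rtn4, which encodes a protein of the tubular endoplasmic reticulum, was lower in each xRescue library with 367 and 407 CPM with the morpholinos, against 603 and 644 CPM without them (log2 difference -0.84). The calcium pump atp2a2 of the same organelle had 930.4 and 1328 CPM in xRescue caps, against 974 and 1197 CPM in xPhf8 caps, and library 2 exceeded library 1 in both groups.

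The 14-3-3 proteins bind phosphorylated partners, and 3 of the 5 genes of this family with a name were members. Beside ywhaq (ratio 1.18), ywhab had 474 and 561 CPM in xRescue caps, against 539 and 556 CPM in xPhf8 caps (ratio 1.18) and ywhaz had 459.9 and 475 CPM with the morpholinos, against 561 and 579 CPM without them (ratio 1.26). The xRescue libraries were both below the xPhf8 libraries for ywhaz under all 3 scalings, for ywhaq under TMM and DESeq2 scaling and for ywhab under TMM scaling alone. The family was not even as a whole, since ywhae had 548 and 843 CPM in xRescue caps, against 1351 and 1792 CPM in xPhf8 caps and a ratio of 3.27, and so was abundant but outside the limit.

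Genes of chromosome copying and cohesion were also members. The replicative helicase gene mcm7 had 814 and 507 CPM in xRescue caps, against 777 and 516 CPM in xPhf8 caps, so library 1 exceeded library 2 in both groups by more than the groups differed. The cohesin gene rad21 was higher in each xRescue library with 755 and 664 CPM with the morpholinos, against 430.1 and 534 CPM without them (log2 difference 0.40). For top1.1, a topoisomerase I gene, 605 and 410.2 CPM in xRescue caps, against 633 and 608 CPM in xPhf8 caps were found (log2 difference -0.44). Both xRescue libraries were below both xPhf8 libraries under all 3 scalings, library 1 only narrowly so in CPM.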
